A study of Ovis aries with 36 samples.

Results

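The 9 muscles of the sheep sampled here differ in how much TPM3 they express, and 9 Ensembl loci fell as TPM3 rose across them. TPM3 (ENSOARG00000001845) encodes the tropomyosin of slow fibers. The loci were chosen from the read counts themselves. Counts were divided by the sample total over Ensembl loci and scaled to CPM, Ensembl loci with a mean of at least 10 counts over 36 samples were kept once each, and the mean of each animal over its 9 muscles was subtracted from log2(CPM + 1). A locus was a member where Pearson r with TPM3 was -0.65 or lower. This left 9 members of 7695 loci that passed the count minimum, out of 24763 Ensembl loci in all. All 9 members passed that minimum, the lowest count of any of them in any sample being 21. They are called locus 1 to locus 9 here, in order of r. The files pair no gene symbols with these identifiers, so their roles cannot be given. Locus 1 is ENSOARG00000008849 and locus 2 is ENSOARG00000006566. Since r with TPM3 chose the members, every difference between muscles that follows TPM3 is a description of the choice and not a test of it.

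RNA-Seq libraries came from 4 unrelated Poll Dorset cross-bred male lambs, aged 14 months and weighing 67 to 72 kg, which were fed soy crop and grain sorghum after weaning, and the labels give no treatment that differs between samples. Each animal gave the superficial belly of 9 muscles, namely ST (Semitendinosus), SM (Semimembranosus), AD (Adductor), GB (cranial Gluteobiceps) and RF (Rectus femoris) of the thigh, GM (Gluteus medius) of the rump, LL (Longissimus lumborum) and PM (Psoas major) of the loin, and SS (Supraspinatus) of the shoulder, so that each muscle has n = 4. The muscle is the only difference between groups that the labels give. Each animal is present in every muscle, and samples were matched to animals by the replicate number in the labels. Samples were pieces of whole muscle, in which fewer fibers of a kind and less RNA per fiber cannot be told apart.

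A skeletal muscle is a mixture of slow fibers, which resist fatigue and rely on oxidation, and fast fibers, which contract quickly and draw more on glycogen and glycolysis. Each kind builds its sarcomere from its own forms of myosin, troponin and tropomyosin. Tropomyosin lies along the actin filament and, together with the troponins, makes contraction depend on calcium. The TPM3 gene also gives tropomyosins of cells other than muscle fibers.

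TPM3 was lowest in ST, where the 4 animals gave 38.9, 39.1, 72.0 and 62.8 CPM. In SS it was 355, 428, 740 and 675 CPM. It was highest in PM, at 744, 729, 1032 and 957 CPM. The muscles stood in the order ST, LL, RF, SM, AD, GM, SS, GB and PM, and of these 8 steps only those from ST to LL and from GB to PM had no overlap between the animals of neighbouring muscles. An assembled locus without an Ensembl gene, with a mean of 122 counts, overlaps that of TPM3, so their reads may not be fully separated. The slow fiber role of TPM3 was checked with MYOZ2, MYL3, TNNT1, TNNC1, TNNI1 and MYOM3, the genes of the slow sarcomere list that could be placed on a locus. Their r with TPM3 was between 0.79 and 0.98 in 6 of 6, out of 15 in the list. The study picked them on these same samples, which makes them no independent evidence. Of 18 lists of genes, 14 had no gene that could be placed, fast sarcomere and the markers of fat, vessels, connective tissue and other cell types among them, so these were not evaluated here. Of 34 genes of glycolysis and glycogen only PPP1R3D, a targeting subunit of the phosphatase that acts on glycogen, could be placed, and its r with TPM3 was -0.04.

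**Figure D1:**
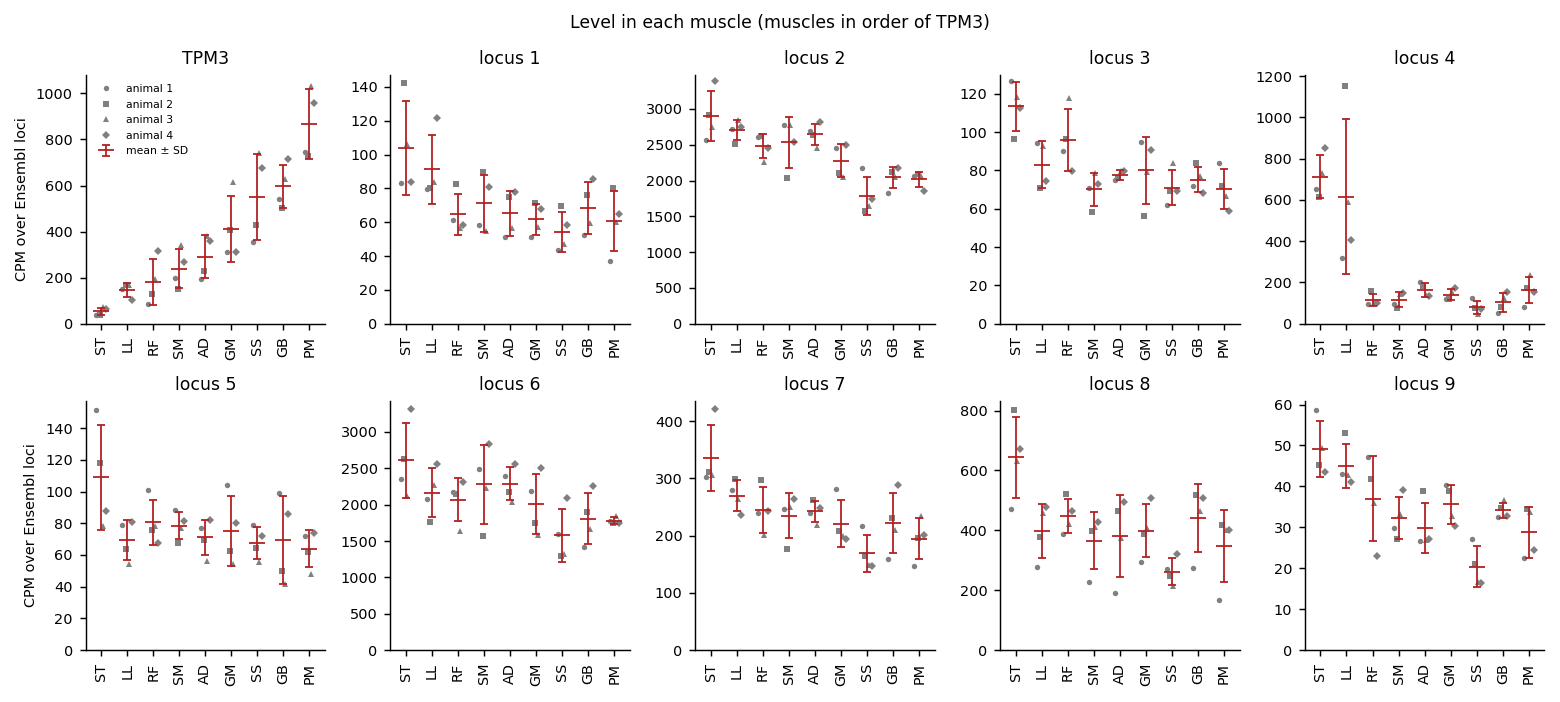
Level of TPM3 and of each of the 9 loci in CPM (linear axes from 0) by muscle, with muscles in the order of mean TPM3. Grey symbols are the 4 animals and red bars the mean ± SD. TPM3 climbs from ST to PM while all 9 loci have their highest mean in ST, and locus 4 is high in both ST and LL.

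Levels were highest in ST for 9 of 9 members, the muscle with the least TPM3. PM, with the most TPM3, was however the lowest muscle of 1 member only. SS was the lowest for 7 of 9 members, and SM for the remaining one. Animal by animal, ST was the highest of the 9 muscles in 28 of 36 combinations of member and animal and SS the lowest in 20. The members lie on 7 chromosomes. Levels are not comparable between loci, since transcript lengths were not used here, and each locus is compared only with itself in other muscles.

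Locus 1 spans 33768481 to 33959674 of chromosome 2 in the Oar_v3.1 assembly and had the most negative r, -0.76. In ST its 4 animals had 83.1, 142, 106 and 83.5 CPM. In SS they had 43.3, 69.5, 47.1 and 58.1 CPM. No SS sample reached the lowest ST sample, and the ratio of the means was 1.90. LL was close to ST, with 79.5, 80.0, 83.7 and 122 CPM, and in animal 4 LL was the highest of all muscles. Locus 1 was also the member that followed TPM3 most closely among samples of the same muscle, with an r of -0.51 after both muscle and animal means were removed.

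Locus 2, on chromosome 13 between 74134773 and 74139472, was the most counted member. It had 2566, 2910, 2745 and 3387 CPM in ST. In SS it had 2174, 1581, 1641 and 1739 CPM. The muscles differed by a modest ratio, 1.63, but the groups did not overlap. PM was nearly as low as SS, at 2065, 2085, 2061 and 1858 CPM. This was the single member whose r stayed at or below -0.65 when ST was left out (-0.72).

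Locus 3 lies on chromosome 24 at 27719967 to 27739608. It overlaps another Ensembl locus that has a mean of only 2.22 counts, and how many reads fell on the shared stretch is not known. ST gave 126, 96.2, 118 and 113 CPM. SS gave 61.9, 69.5, 83.7 and 69.1 CPM. The lowest mean was that of SM, at 70.7, 58.2, 78.9 and 72.9 CPM, although TPM3 is far from highest in SM. Locus 3 thus followed TPM3 at the ST end, whereas SM, PM and SS had nearly equal means of 70.2 ± 8.70, 70.5 ± 10.5 and 71.1 ± 9.14 CPM (SD, n = 4).

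Locus 4, at 77817796 to 77842494 of chromosome 12, had the widest range of the members, 3.22 log2 units between its highest and lowest muscle mean. ST samples had 655, 616, 729 and 853 CPM. LL samples had 317, 1152, 591 and 405 CPM. SS samples had 124, 77.6, 47.8 and 69.1 CPM. ST and LL overlapped with each other, and every one of their 8 samples lay above every sample of the other 7 muscles, whose highest was 236 CPM in PM. The ratio of ST to SS was 8.96. The step from AD (165 ± 33.3 CPM) to LL (616 ± 375 CPM) was its only step between neighbouring muscles without overlap, and the large SD in LL came from animal 2.

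Locus 5 runs from 86103882 to 86197215 of chromosome 1 and joins 3 Ensembl genes in 1 assembled locus, so it is uncertain which of them was counted. ST had 152, 118, 78.4 and 87.7 CPM. SS had 79.0, 64.5, 55.4 and 72.2 CPM. It was the one member whose ST and SS samples overlapped, although ST was higher than SS within each of the 4 animals. ST was the highest muscle in 4 of 4 animals and SS the lowest in none. The next counted Ensembl locus lies 1.46 kb further along the chromosome and had an r of -0.51 with TPM3 and 0.54 with locus 5.

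Locus 6 occupies 2.59 kb of chromosome 21, from 48802868 to 48805457. ST animals had 2360, 2634, 2115 and 3323 CPM. SS animals had 1601, 1295, 1318 and 2088 CPM. The lowest ST sample exceeded the highest SS sample by a small margin, and the ratio of the means was 1.65. SM varied widely between animals, with 2489, 1565, 2224 and 2835 CPM, and overlapped with both.

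Locus 7, on chromosome 14 at 52810351 to 52818984, had 302, 311, 306 and 421 CPM in ST. In SS it had 217, 164, 149 and 147 CPM. The ratio was 1.98 with no overlap, and ST stood above every other muscle in 4 of 4 animals. Its second muscle was LL, with 279, 299.5, 264 and 237 CPM, none of which reached the lowest ST sample. Its r among muscle means was the most negative of the members, -0.90, while within muscles it was 0.11, the only positive one.

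Locus 8, from 91193360 to 91219364 of chromosome 1, had 472, 801, 633 and 672 CPM in ST. SS had 269, 246, 213 and 320 CPM. The ratio was 2.46, ST was the highest muscle in every animal, and the ST and SS samples did not overlap. The other 7 muscles had close means, from 347 ± 121 CPM in PM to 448 ± 57.5 CPM in RF. Animal 1 was lower than the other animals in 8 of 9 muscles.

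Locus 9, at 219777799 to 219787070 of chromosome 2, was the least counted member. ST had 58.7, 45.1, 49.5 and 43.5 CPM. SS had 27.1, 21.1, 16.6 and 16.5 CPM, which at a value of 1.60 to 3.31 CPM for 3 counts still lies well above the limit that a count of 0 allows. The ratio was 2.42 without overlap. LL was again second, at 43.0, 52.9, 42.8 and 41.0 CPM.

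Of all members, 8 of 9 had no overlap between ST and SS, all higher in ST, where 4.02% of the 7695 loci did so. Within animals 9 of 9 were higher in ST in each of the 4, where 11.4% of loci were. Between ST and PM, the ends of the TPM3 order, 9 of 9 did not overlap (2.34% of loci), and between ST and GM 6 of 9 (2.09%). Between ST and GB 5 of 9 did not overlap (1.49%). Without ST, LL and SS did not overlap in 5 of 9 members (2.43%) and LL and PM in 4 of 9 (0.676%). SM and SS overlapped in all 9, although 6.76% of loci were higher in SM without overlap and TPM3 was lower in SM in 4 of 4 animals. The rule used these same differences, so nothing about the members is read from these shares.

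The size of the differences is given by the edgeR quasi-likelihood fit to all 36 samples with muscle and animal as terms, with Benjamini-Hochberg adjustment over 12461 loci. Between ST and SS all 9 members passed an adjusted p of 0.05 (8.06% of loci passed, 3.59% with the higher level in ST), with log2FC from 0.78 in locus 5 to 3.24 in locus 4 and a median of 1.04, against -0.01 over all loci. TPM3 itself had a log2FC of -3.23. Between ST and GM 7 of 9 passed (7.69% of loci, with 2.9% higher in ST), loci 2 and 6 not doing so. Between LL and SS 5 of 9 passed (7.05%, with 3.84% higher in LL), namely loci 1, 2, 4, 7 and 9. Between SM and SS none passed (11.2%, with 4.45% higher in SM), with log2FC from -0.02 to 0.68, while 4 members had an unadjusted p under 0.05. Between these muscles DESeq2 called 1 (9.61% of loci) and edgeR's likelihood ratio test called 1 (13.2%). Among the 9 muscles jointly 9 of 9 passed (19.1%). With an adjusted p of 0.01 and an absolute log2FC above 1 asked for, 5 members were called between ST and SS (0.77% of loci called higher in ST), 2 between LL and SS (1.26% higher in LL), 1 between ST and GM (0.682% higher in ST) and none between SM and SS (0.498% higher in SM).

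**Figure D2:**
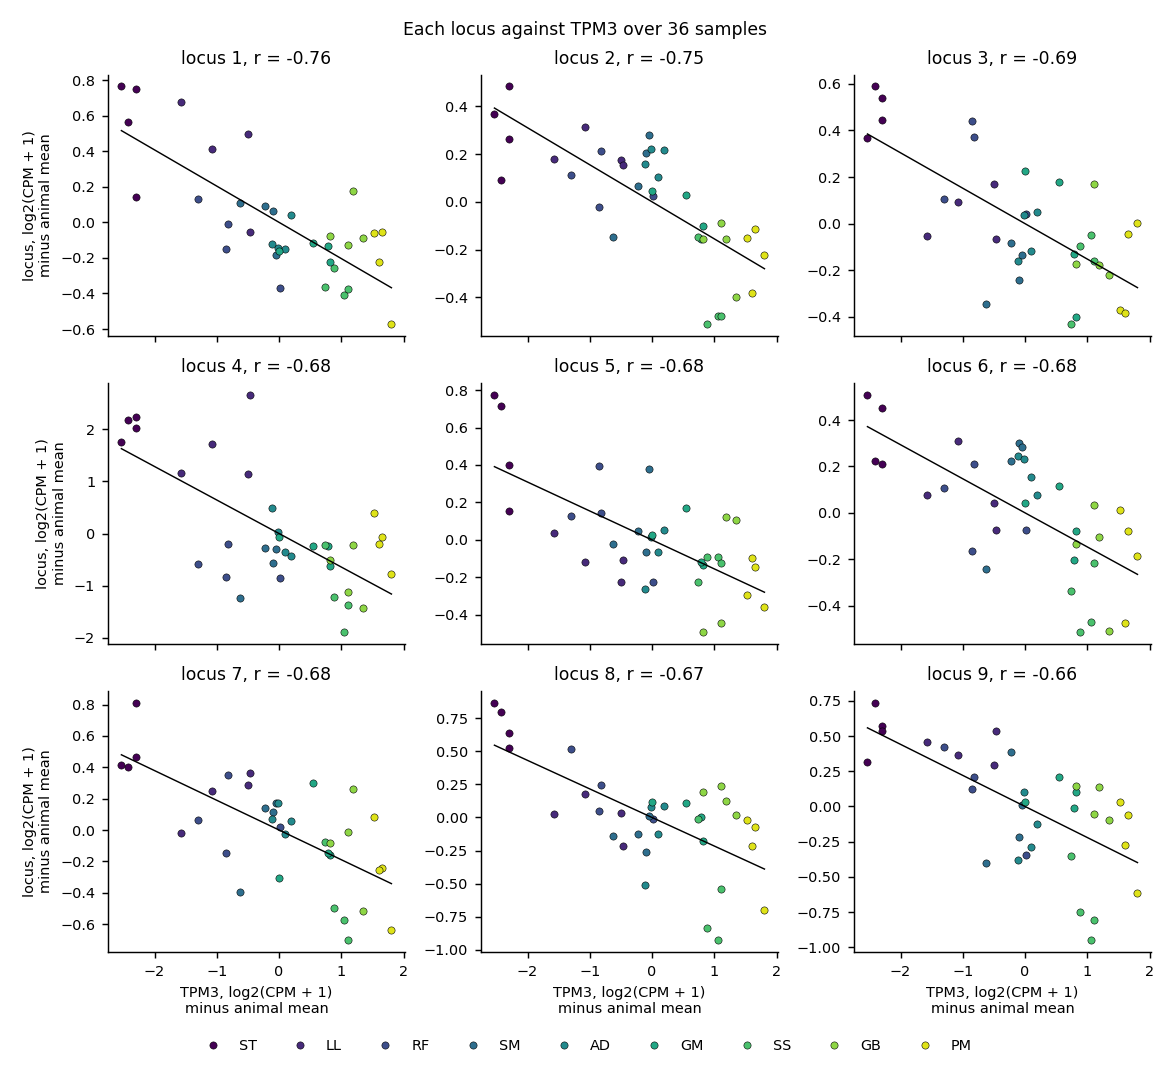
Each locus against TPM3 in 36 samples, both as log2(CPM + 1) minus the mean of the animal, colored by muscle, with the least-squares line. The 4 ST samples stand apart at the left of each panel, where TPM3 is lowest. In several panels samples of other muscles lie as high as ST samples or higher. SS samples lie below the line for most loci.

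The slope of a member on TPM3 was between -0.15 and -0.64 log2 units per log2 unit, the steepest being that of locus 4, whose log2FC between ST and SS was as large as that of TPM3 and of the other sign. The other 8 members had log2FC of 0.78 to 1.40 there. With each doubling of TPM3 on that line locus 1 fell by 13.2%, locus 2 fell by 10.2% and locus 4 fell by 35.9%. Muscle means spread over 0.69 to 3.22 log2 units, with a median of 0.90, where the median over all 7695 loci was 0.66 and that over the 80 loci that rose with TPM3 at r of 0.65 or higher was 1.42. TPM3 spread over 4.04. The share of the animal-centred variance that lay between muscles was 58.5% to 86.2% in the members, and its median was 36.6% over all loci.

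The line on TPM3 did not describe all muscles equally. SS lay below the line of 8 of 9 members, down to -0.56 log2 units, although GB and PM had more TPM3. PM lay above the line for 9 of 9. Locus 4 departed most, with LL at 1.09 and PM at 0.89 log2 units from its line and RF at -1.09. In locus 9 SS was at -0.51 and GB at 0.28.

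Correlation lay between muscles more than within them. Over the 9 muscle means r was between -0.74 and -0.90. After muscle means were removed as well, it was between -0.51 and 0.11, with a median of -0.17. Within single animals, over 9 muscles each, all 36 values of r were below 0, from -0.43 to -0.88. These samples share animals, so the values are descriptions.

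**Figure D3:**
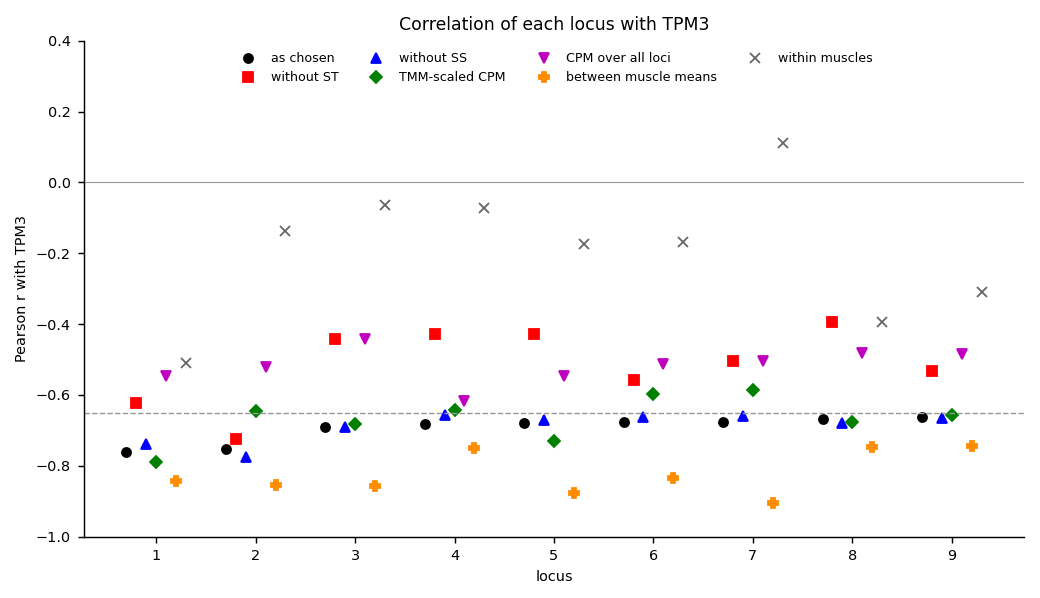
Pearson r with TPM3 of each locus as chosen and under other choices of samples and scaling, together with r between the 9 muscle means and r within muscles. The dashed line is -0.65. Leaving out ST moves most loci above the line, and CPM over all loci moves all 9 above it, but only the value within muscles of locus 7 is above 0.

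Without the 4 ST samples r of the members rose to between -0.39 and -0.72, and 1 of 9, locus 2, was still at or below -0.65. Without SS r was between -0.66 and -0.77 and 9 of 9 remained. Scaling mattered as well. With TMM-scaled CPM r was between -0.59 and -0.79 and 5 of 9 stayed, among 18 loci that passed. With CPM over all assembled loci, the unannotated ones included, r was between -0.44 and -0.62 and no locus passed, locus 4 having the most negative r of all 7695. The sign of the members was negative in each of these settings. The share of all loci with a negative r moved much more with the scaling, being 30.7% in the scaling of the rule, 57.6% with TMM and 13.4% with CPM over all loci. Ensembl loci took 19.1% to 29.9% of the counts of a sample, with medians of 22.1% in SM and 22.7% in ST against 25.7% to 28.0% in the other muscles. The log2 of that share had an r of 0.27 with TPM3 and of -0.40 to -0.01 with the members, and CPM over all loci, for which r is given above, does not contain it. Total counts had an r of -0.31 with TPM3 and of 0.04 to 0.39 with the members. The number of loci detected had an r of 0.31 with TPM3 and of -0.50 to -0.14 with the members. The part of these library measures in the relation was not tested.

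Loci just inside and outside the limit hardly differed. Loci 7, 8 and 9 had r of -0.68, -0.67 and -0.66. The next 3 loci, on chromosomes 21, 14 and 22, had r of -0.648, -0.645 and -0.636. They were also highest in ST and lowest in SS.

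The rule was also applied to 3 animals and read in the fourth, whose samples did not enter the r used to choose. The count minimum still used all 36 samples, and the study listed TPM3 from all 4 animals. The values are therefore a description and no replication. Without animals 1, 2, 3 and 4 it chose 17, 14, 12 and 13 loci, of which 6, 8, 8 and 6 were members. In the animal left out 15, 14, 12 and 12 of them had an r below 0, whereas 31.0%, 44.5%, 48.2% and 26.7% of all loci did. An r of -0.65 or lower was again reached by 6, 3, 4 and 3 of them (0.845%, 1.40%, 1.82% and 0.949% of all loci). The median r in the left-out animal was -0.55, -0.54, -0.64 and -0.45. Loci 1 and 2 were chosen each time, and locus 9 in 2 of the 4.

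The members were not all alike once TPM3 was set aside. Over 36 samples r between members was 0.39 to 0.91 in the 36 pairs, with a median of 0.60, which follows in part from their common choice. After the line on TPM3 was taken out of each, it was between -0.21 and 0.84. Loci 2 and 6, on chromosomes 13 and 21, kept the highest r, 0.84, and loci 2 and 7 the next, 0.68. Pairs among loci 6, 7, 8 and 9 reached 0.66 (8 and 9), 0.63 (7 and 9), 0.60 (6 and 7) and 0.48 (7 and 8), the others being 0.28 (6 and 8) and 0.30 (6 and 9). Locus 4 had 0.57 with locus 7 and 0.55 with locus 9. Loci 3 and 5 stood apart, their highest values with any member being 0.24.

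**Figure D4:**
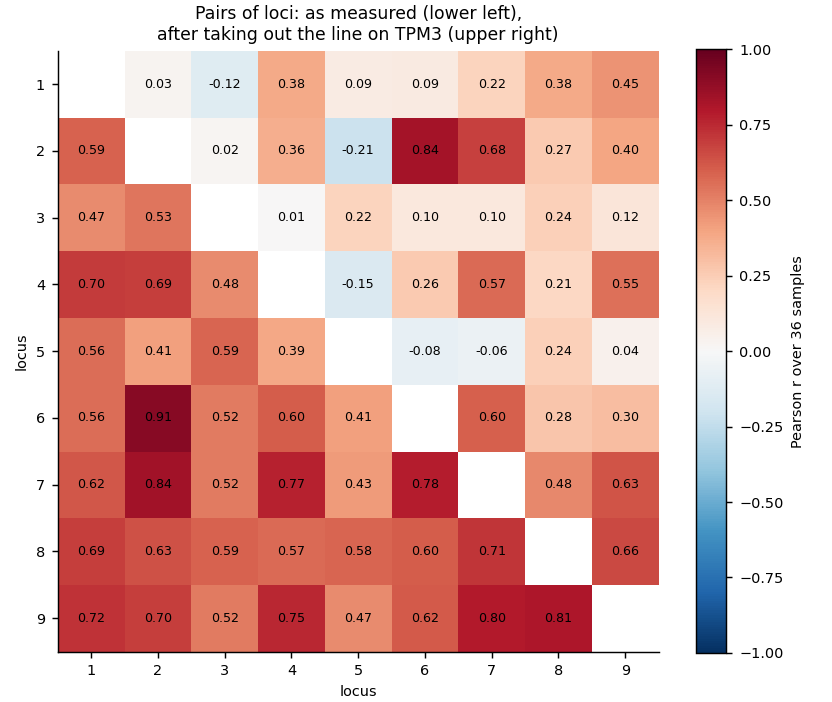
Pearson r over 36 samples between pairs of the 9 loci, as measured (lower left) and after the line on TPM3 was removed from each locus (upper right). Loci 2 and 6 keep the highest value, 0.84, and 5 of 36 pairs fall below 0.

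The other genes of the slow sarcomere list have a high r with TPM3 in these samples, so that a negative r with the members follows largely from the choice and is given as a description. In the 54 pairs of a member with MYOZ2, MYL3, TNNT1, TNNC1, TNNI1 or MYOM3, r was always below 0, from -0.45 to -0.86, and -0.65 or lower in 36. MYOM3, a protein of the M-band, had both its weakest relation with locus 3 (-0.45) and a strong one with locus 1 (-0.79). TNNI1, the slow inhibitory troponin, had the most negative, -0.86 with locus 1. Among genes of calcium handling, ATP2A2, the calcium pump of slow and cardiac muscle, had r of -0.56 to -0.82 with the members, and CASQ2, the calsequestrin of slow and cardiac muscle, had -0.59 to -0.79. PVALB, the calcium buffer of fast fibers, had a median of 1.26 CPM, below the value of 3 counts in any sample, so its r is not given.

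TPM3 was not the most opposed gene of any member. It ranked between 4 and 76 among the most negative partners of a member over 7695 loci. The most opposed locus could be named for 4 members. It was MYOZ2, a Z-disc protein of slow and cardiac fibers, for locus 3 (-0.76), and MYL3, the slow essential myosin light chain, for locus 5 (-0.71). For locus 8 it was CASQ2 (-0.79), and for locus 4 it was DLG2, a scaffold protein best known from synapses (-0.84). The most similar locus was another member for 6 of 9, which follows in part from their common choice.

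The differences between animals are the one readout that the rule did not use, because it subtracts the mean of each animal. In the same edgeR fit the 4 animals differed at an adjusted p of 0.05 or lower in 3 of 9 members, where 28.7% of the 12461 loci did, so the members were near the share over all loci. Locus 5 had an adjusted p of 3.1e-05, with means over 9 muscles that correspond to 92.2, 68.7, 59.1 and 78.8 CPM in animals 1 to 4. Locus 8 had 0.0041, with 271, 439, 407 and 467 CPM. Locus 1 had 0.0054, with 56.0, 83.3, 62.7 and 75.7 CPM. Animal 1 was thus the highest in locus 5 and the lowest in loci 1 and 8. The range between animals had a median of 0.33 log2 units in the members and of 0.36 over all loci. When animal 1 was left out no member passed in edgeR (4 had an unadjusted p under 0.05, with an adjusted p of 0.052 for locus 1, 0.065 for locus 5 and 0.65 for locus 8), while 16.6% of loci did. Animal 1 had the lowest total count in 9 of 9 muscles, and the part of depth in this result was not tested. The study sequenced 9 libraries in each of 4 lanes without stating which shared a lane. Whether lane coincides with animal is therefore not known.

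**Figure D5:**
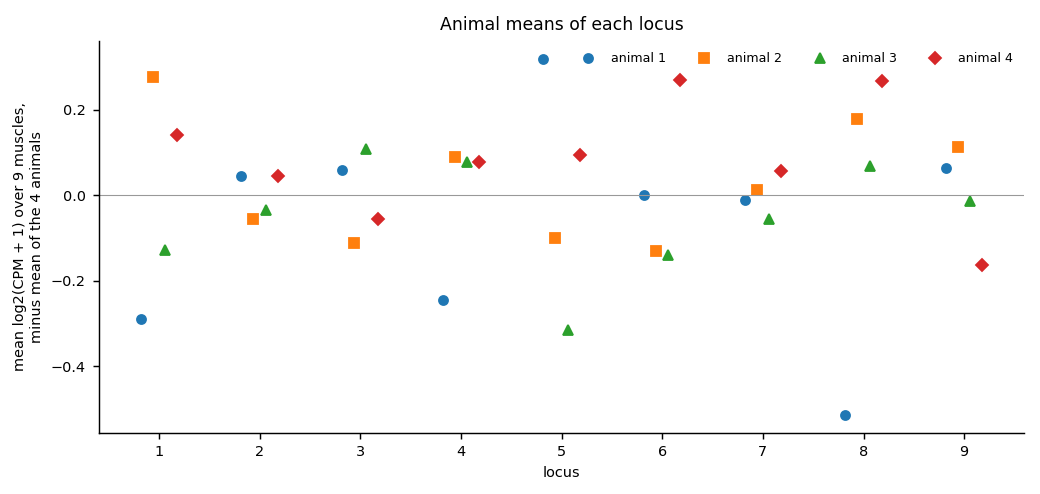
Mean log2(CPM + 1) over 9 muscles of each animal, minus the mean of the 4 animals, for each locus. Animals spread most in locus 8, by 0.78, and least in locus 2, by 0.10.

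Reads counted per locus depend on transcript length as well as on expression. All 9 members had more of them than the median of the 7695 loci. Counting error weakens r, so a limit on r favors well-counted loci, and no trait of the members is read from this. Median CPM was 237 in the members, 57.7 in the 80 loci that rose with TPM3 and 23.9 over all loci. They spanned 2.59 to 191 kb of the genome, with a median of 19.6 kb against 34.7 kb over all loci. Total counts per sample were 3699148 to 6427422, of which 905623 to 1878225 fell on Ensembl loci.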

How the data were processed

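RNA-Seq was done on 36 muscle samples. Reads were mapped by the authors to the Oar_v3.1 assembly (TopHat2 2.0.13), loci were assembled with Cufflinks 2.2.1 on top of the Ensembl annotation, and HTSeq gave the counts. The deposited values are whole-number counts per locus, without normalization. A locus listed under several Ensembl genes was used once. Starts in the files count from 0 and are given here from 1.

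Groups came from the sample labels. The members and gene lists were chosen with earlier results of these data known. CPM were computed over Ensembl loci, with a pseudocount of 1 on the log2 scale. Loci left by filterByExpr were tested with edgeR 4.0.16 (R 4.3.3), TMM factors, muscle and animal as terms, and Benjamini-Hochberg adjustment. The animal was used as a block. The labels give a replicate number, which was taken as the animal because the study describes a paired design within animals. Deviations from muscle means correlated by 0.24 on average between samples of 1 replicate number, the lowest being -0.02, and by -0.08 between others. The value between others largely follows from that within replicate numbers, because deviations from a muscle mean cancel over its 4 animals. Tests compare 4 animals, whose samples differed by 4.20 to 21.7 chi-square units per degree of freedom in the 54 pairs within muscles, more than counting noise gives, so none was merged. Depth was 3699148 to 6427422 counts per sample, and 3 counts are 1.60 to 3.31 CPM. Libraries hold no molecular identifiers, so this covers counting error only.

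On simulated counts for ST and SS, with 200 of 9334 loci changed, 98 of 100 changes of 4-fold and 46 of 100 of 2-fold were called, together with 7 unchanged loci. Simulated loci shared the same dispersion, had no animal effect and had a mean of at least 10 counts. These rates are therefore not those of the 12461 loci tested. The rule for named genes needed symbols, and none could be paired with a member: the gene table supplied is of another assembly, and its identifiers do not include those of the files. All 9 members are therefore described by position. Names of other genes come from positions given by the study, where they fall in 1 locus. No sequence is shown, because none for Oar_v3.1 was used here. Alternatives were DESeq2 1.42.0, the likelihood ratio test, RLE factors, no filter, no animal term, a stricter threshold, other scalings and count minimums in the rule, Spearman correlation, and animals or muscles left out, of which leaving out SM, GB, GM, RF, LL, AD or PM was added after seeing the data.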

Additional observations from a re-analysis of the deposited data

Results flagged for a closer look

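In 9 of the 90 groups of 4 samples examined, 10 loci including TPM3 in 9 muscles, 1 animal stood far from the other 3, and chance alone gives about 1 in 20. All 9 were in members, which make up 9 of the 10 loci. The groups share animals and the loci are correlated, so the number flagged is no test against chance. High values were those of locus 1 on chromosome 2 in LL of animal 4, 122 CPM against 79.5 to 83.7, of locus 4 on chromosome 12 in RF of animal 2, 158 CPM against 95.6 to 100.3, and of locus 7 on chromosome 14 in ST of animal 4, 421 CPM against 302 to 311. Locus 7 was also high in GM of animal 1, 281 CPM against 193 to 208. Locus 9 on chromosome 2 was high in animal 2 in both LL, 52.9 CPM against 41.0 to 43.0, and AD, 38.9 CPM against 26.6 to 27.1. Low values were those of locus 2 on chromosome 13 in PM of animal 4, 1860 CPM against 2061 to 2085, and of locus 8 on chromosome 1 in animal 1, at 226 CPM against 398 to 429 in SM and at 166 CPM against 402 to 418 in PM.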

How the results depend on the processing

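Only the median log2FC between ST and SS could reverse, by changing sign, and it kept its sign in the alternatives run. The rule used that difference, so this is a description. Of 59 alternatives, left-out animals aside, 41 kept counts within 1.5 times or, for the median, within the spread between animals. The loci passing the rule, 9 as chosen, became 18 with TMM scaling, 0 with CPM over all loci, 5 with repeated entries kept, 5 with Spearman correlation, 3 without the replicate block, 3 without ST, 3 without SS and ST, and, with muscles left out after seeing the data, 15 without SM, 27 without GB, 21 without LL and 19 without PM. Shares of all loci called are given in brackets. Members called at an adjusted p of 0.01 with an absolute log2FC above 1 were 5 between ST and SS (2.29%), 2 between LL and SS (2.42%) and 1 between ST and GM (2.21%). Between SM and SS the likelihood ratio test called 1 (13.2%) and DESeq2 1 (9.61%). Without the replicate block 3 were called between ST and GM (3.01%), and without the muscle term 1 among animals (20.7%). Leaving out 1 animal gave 12 to 17 loci for the rule, 6 to 9 members between ST and SS with a median log2FC of 0.81 to 1.08 (lowest without animal 4), 0 to 2 between SM and SS, 3 to 6 between LL and SS (3 without animal 2, 3 or 4), 4 to 9 between ST and GM (lowest without animal 4), 6 to 8 among muscles and 0 to 3 among animals (0 without animal 1). With 1 animal left out, 4.24% to 6.11% of all loci were called between ST and SS and 4.19% to 8.75% between SM and SS. Between LL and SS it was 2.99% to 7.43%, and between ST and GM 2.62% to 6.26%. Among muscles it was 8.38% to 13.6%, and among animals 16.6% to 24.2%. The cause of the changes between settings was not tested. Members rest on 4 animals, on unnamed loci and on a scaling over a minority of the counts.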

Other observations

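Of the genes that could be placed through the study's positions, 5 had an r above 0 with all 9 members, and none of the 5 is a member. They were HOXC10 (0.19 to 0.62) and HOXD8 (0.09 to 0.57), which are homeobox genes of limb and trunk patterning, SMYD2 (0.09 to 0.58), a lysine methyltransferase, CHI3L1 (0.04 to 0.63), a secreted glycoprotein, and TMEM2 (0.24 to 0.68), which degrades hyaluronan at the cell surface. Their r with TPM3 was between -0.20 and -0.41, short of the limit. HOXC10 fell to 0 CPM and HOXD8 to 0.77 CPM in the lowest sample, under the value of 3 counts. The locus of CHI3L1 is listed under 2 entries, so it is uncertain which of them was counted. Of 25 genes placed in this way and with a value, 14 had an r below 0 with all 9 members and 6 had mixed signs. PVALB, whose level was too low for its r to be given above, is among the 6. The study chose these genes for differences between the same muscles.

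Of 1639 assembled loci without an Ensembl gene and with a mean of at least 10 counts, 15 (0.915%) had an r of 0.65 or higher with TPM3, a share close to the 1.04% of Ensembl loci. At -0.65 or lower there were 0, where the 0.117% of Ensembl loci would correspond to about 1.92, so that no difference in share is read from this.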
